A study of Mus musculus with 12 samples.

Results

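The 10 genes described here encode receptors with which macrophages take up modified lipoproteins, glycoproteins, dying cells and microbes, together with 1 secreted protein. They were picked by gene symbol from a table of 55487 genes, and all 10 were present: the class A scavenger receptors Msr1 and Marco, the lectin-like oxidised LDL receptor Olr1, the class B receptors Cd36, Scarb1 and Scarb2, the mannose receptor Mrc1, the stabilin Stab1, the haemoglobin receptor Cd163 and the secreted protein Cd5l. All 10 had enough counts to be tested, among 15801 tested genes. Scavenger receptors are defined by what they bind rather than by shared ancestry, and most of them recognise polyanionic or oxidised ligands. In macrophages they feed lipid into storage and efflux, clear apoptotic cells and bacteria, and are known to be regulated by lipid-sensing nuclear receptors and by inflammatory stimuli. Cd5l, also called apoptosis inhibitor of macrophages, consists of scavenger receptor cysteine-rich (SRCR) domains, is secreted by macrophages, and in mouse macrophages is known to depend on liver X receptors.

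Poly-A enriched RNA of mouse bone marrow-derived macrophages, kept in macrophage colony-stimulating factor and all carrying 1 batch label, was sequenced to compare cells that carry the intact gene for Fes, a cytoplasmic tyrosine kinase, with cells that lack it. The 4 groups of 3 libraries were Fes-/- macrophages given LPS (bacterial lipopolysaccharide, 1 µg/mL) for 4 h, Fes-/- macrophages given PBS, wild-type (Fes+/+) macrophages given LPS, and wild-type macrophages given PBS. The labels call the unstimulated cells PBS-treated, the treatment protocol calls them untreated, and sex, age and strain of the mice are not given in the labels. The design text names 3 mice per genotype, and the labels do not state whether the LPS and PBS libraries with the same replicate number came from 1 mouse.

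Library totals ran from 61016254 to 101027166 counts. Fes, the targeted gene, had 16.8, 15.998 and 16.03 TPM (a length-normalised level on a fixed total per library) in the Fes-/- LPS libraries and 63.8 to 66.7 TPM in the Fes-/- PBS libraries, against 72.2 to 82.0 TPM in the wild-type LPS libraries and 154 to 174 TPM in the wild-type PBS libraries, so its RNA was lower but not absent in Fes-/- cells. All 8 macrophage markers of the list used for the identity check (Adgre1, Csf1r, Cd68, Mertk, Fcgr1, Itgam, Cd14 and Lyz2) passed the count filter. Markers of mast cells, B cells and erythroid cells stayed below the filter. Some markers of neutrophils and their precursors (6), dendritic cells (6), stromal cells (3), endothelium (2), megakaryocytes (2), T cells (1) and NK cells (1) passed it, and none of these was called between the genotypes. The megakaryocyte list was carried by Pf4, a chemokine (mean 799 TPM over the 12 libraries), and Itga2b had at most 46 counts and the NK marker Klrb1c at most 17. All 6 LPS response genes checked, Tnf and Il6 among them, were higher with LPS in both genotypes under both scalings used here. Replicates of each group differed by far more than counting noise, with chi-square values of 19.6 to 77.3 per degree of freedom between pairs, so no library was counted as a repeat of another. The cells were measured in bulk, so fewer cells of a type and less RNA per cell cannot be told apart.

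Cd36, the class B receptor for oxidised LDL and long-chain fatty acids, had the highest mean level of the 10 genes in every group. It averaged 774 ± 69.5 TPM in Fes-/- LPS macrophages, 1131 ± 114 TPM in Fes-/- PBS macrophages, 892 ± 138 TPM in wild-type LPS macrophages and 1315 ± 324 TPM in wild-type PBS macrophages (SD, n = 3 each). With PBS, Mrc1 came next in both genotypes, then Stab1 and Msr1, whose ranges overlapped each other. Stab1 shares 112 exon bases with Nt5dc2 on the opposite strand, and without a stated strand setting reads there cannot be assigned. With LPS, Msr1 stood second in both genotypes, its range overlapping that of Cd36, and Mrc1 came next. In Fes-/- PBS macrophages the order went on with Scarb2, Cd5l, Scarb1, Marco, Cd163 and Olr1, without overlap between neighbours. In wild-type PBS macrophages Cd5l came before Scarb2, and its range reached that of Msr1 (151 to 199 TPM for Cd5l and 160.1 to 302 TPM for Msr1). At the low end, Cd163 averaged 3.14 ± 0.161 TPM in Fes-/- PBS macrophages and 3.15 ± 0.619 TPM in wild-type PBS macrophages (SD, n = 3 each), and Olr1 had between 3 and 13 counts in each of the 6 PBS libraries. The 10 genes together made up 0.199 to 0.347% of the TPM of a library.

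**Figure D1:**
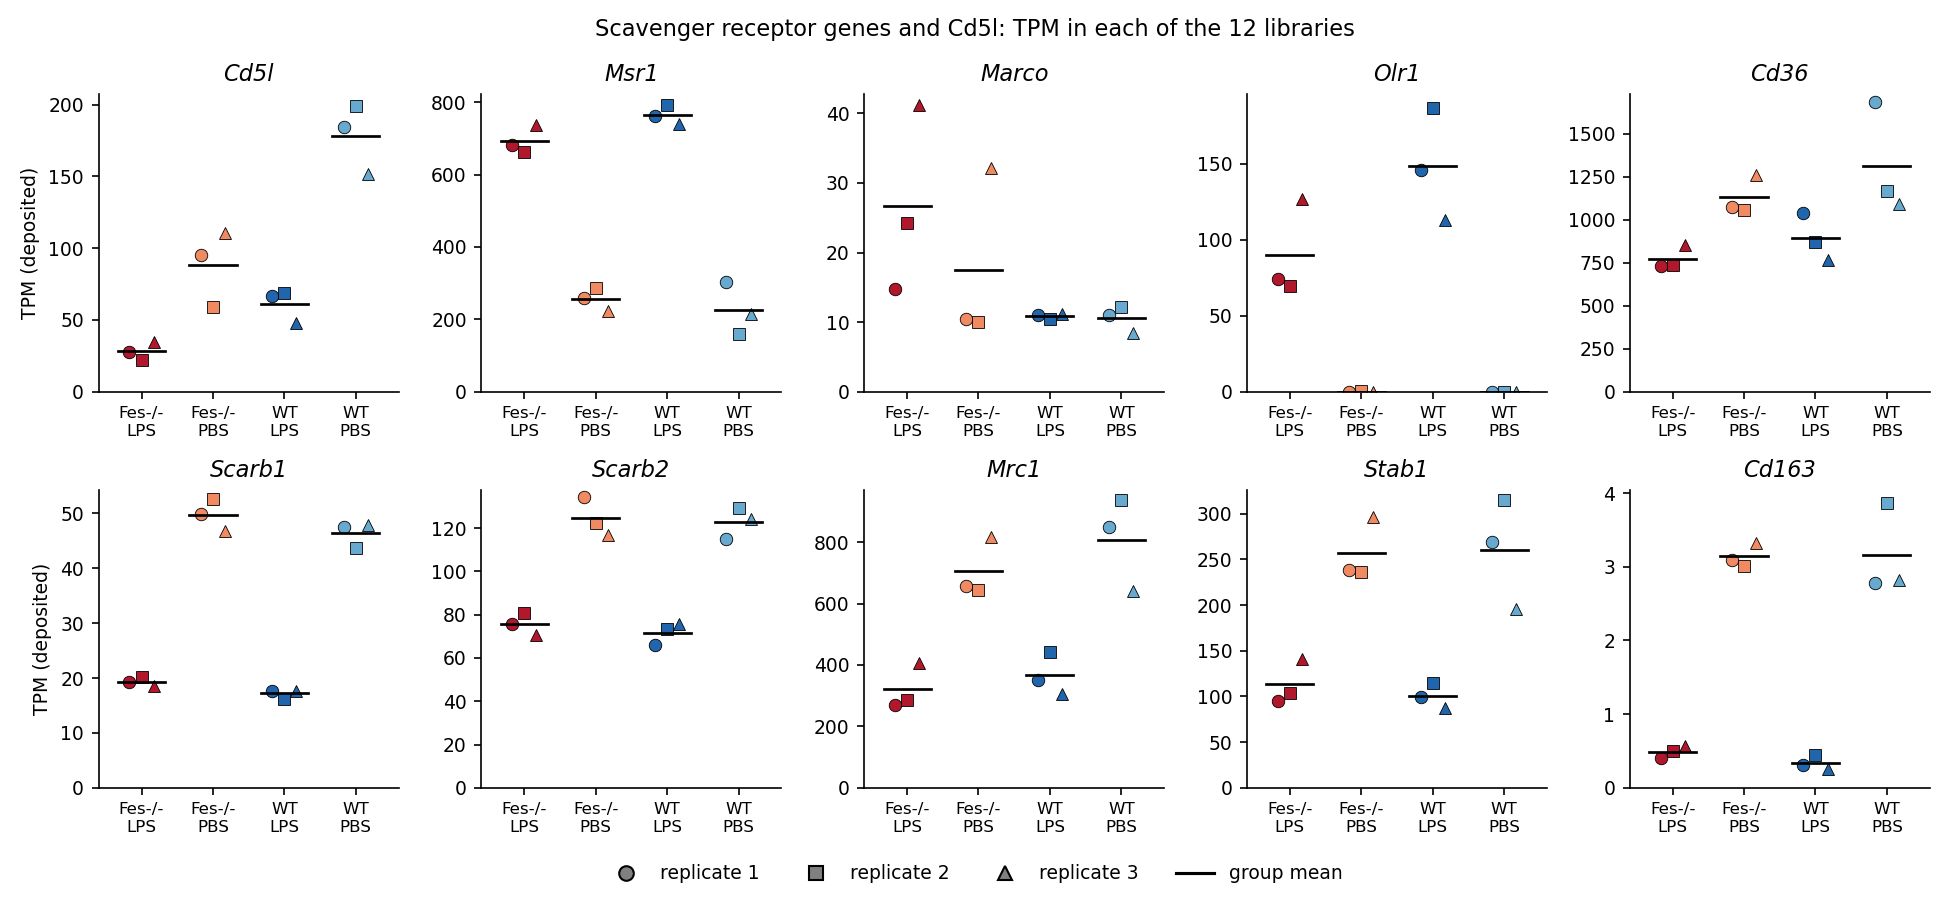
Deposited TPM of the 10 genes (y axis, 1 panel per gene, each on its own scale from 0) in the 3 libraries of each group (x axis); symbols mark the replicate number and bars the group mean. Cd5l in Fes-/- libraries (59.1 to 111 TPM with PBS, 22.2 to 34.8 TPM with LPS) lay below every wild-type library of the same treatment, and Marco was high in both Fes-/- libraries numbered 3.

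Cd5l (ENSMUSG00000015854, GRCm38 chr3:87357881-87371073, plus strand), the secreted SRCR protein, was the 1 gene of the 10 called between the genotypes, in the test averaged over both treatments. With PBS, Cd5l had 94.9, 59.1 and 111 TPM in Fes-/- macrophages, against 185, 199 and 151 TPM in wild-type macrophages. With LPS it had 28.0, 22.2 and 34.8 TPM in Fes-/- macrophages, against 66.3, 68.7 and 48.2 TPM in wild-type macrophages. Under either treatment, each Fes-/- library was lower than each wild-type library. The mean Fes-/- level was 49.5% of the wild-type mean with PBS and 46.4% with LPS. On the log2 scale the differences were -1.06 ± 0.25 with PBS (SE, 95% interval -1.60 to -0.51) and -1.13 ± 0.25 with LPS (95% interval -1.68 to -0.57). Within 1 treatment neither passed the adjusted threshold (edgeR quasi-likelihood test, Benjamini-Hochberg adjusted p = 0.576 with PBS and 0.375 with LPS, the second 0.0455 without Fes-/- PBS library 2). Averaged over both treatments the difference was -1.09 ± 0.18 (95% interval -1.48 to -0.70, adjusted p = 0.0474), which passed the threshold. With the replicate number as a block shared by both genotypes, this call was lost (-1.11, adjusted p = 0.137). That block joins libraries of different mice and is no correction for shared mice. Between the genotypes, deviations from the group mean at the same number correlated at 0.016, -0.156 and -0.135 with PBS. With LPS these correlations were -0.043, -0.129 and -0.151.

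This call lay close to the threshold: it held without wild-type LPS library 3, Fes-/- PBS library 2 or Fes-/- PBS library 3, and was lost without any other single library, with adjusted p between 0.0132 and 0.214 and log2 differences between -0.98 and -1.21 over the 12 omissions. The averaged fit treats LPS and PBS libraries as independent, and an exact two-sided permutation test on 1 mean per genotype and replicate number gave p = 0.1, the smallest value that 3 against 3 allows. DESeq2 called Cd5l lower with PBS (adjusted p = 0.00174), with LPS (0.000495) and averaged (5.4e-09). Markers of neutrophils and their precursors were also lower in these Fes-/- libraries: of 9 listed, 6 were tested and none was called, all 6 had negative averaged differences, and S100a9 came nearest (-0.63 ± 0.12, adjusted p = 0.0634). Their summed level was 23.2 to 30.3 TPM in Fes-/- PBS and 14.2 to 20.5 TPM in Fes-/- LPS macrophages, against 32.9 to 45.04 TPM in wild-type PBS and 17.4 to 28.1 TPM in wild-type LPS macrophages, and the defining genes Ly6g and Retnlg had at most 2 counts in any library. Of 4 T-cell markers only Cd4 was tested (-1.06 ± 0.44 averaged, adjusted p = 0.553), and Cd3e, Cd3d and Cd8a had at most 4 counts. Of the 8 macrophage markers, 7 had negative averaged differences with a median of -0.11 and none was called. The part of these markers in the Cd5l result was not tested.

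The promoter window of Cd5l is shown because this was the 1 gene of the group called between the genotypes. It spans 250 bases before to 50 bases after the RefSeq start (GRCm38.p6, chr3:87357631-87357930, plus strand, 5′ to 3′), with the motif match in capitals.
Cd5l: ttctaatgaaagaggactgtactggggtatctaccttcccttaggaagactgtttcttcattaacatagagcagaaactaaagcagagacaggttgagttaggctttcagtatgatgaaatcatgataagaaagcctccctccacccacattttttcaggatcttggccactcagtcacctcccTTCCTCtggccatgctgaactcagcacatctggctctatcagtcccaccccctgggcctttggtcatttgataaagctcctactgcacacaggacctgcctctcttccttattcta
The capitals are TTCCTC at -66, the reverse complement of a core sequence of PU.1 (GAGGAA), a transcription factor of macrophages. A PU.1 core occurs on either strand in 28.3% of the 32851 RefSeq promoter windows and in 5 of the 8 genes of the group with a window (Cd5l, Marco, Mrc1, Olr1 and Stab1). A match of letters is not a binding site, and no binding was measured here.

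Among the transcription factors tied to scavenger receptor genes, none of the 10 listed was called between the genotypes in either treatment or averaged. With LPS, Maf, a leucine zipper factor, had a difference of 0.27 ± 0.11 (adjusted p = 0.719). With PBS the smallest p values were those of Nr1h2, a liver X receptor (-0.10 ± 0.08), and Pparg, a fatty acid-sensing receptor (-0.10 ± 0.09, adjusted p = 0.975 for each).

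Across the group, 0 of the 10 genes were called between Fes-/- and wild type with PBS by edgeR (0.0823% of all tested genes were), 0 with LPS (0.108%) and 1, Cd5l, averaged (0.165% were called in either direction and 0.0759% lower). At an unadjusted p under 0.05 there were 1 with PBS (3.83% of all tested genes), 4 with LPS (6.52%) and 2 averaged (8.77%). DESeq2 called Cd5l alone in each of these comparisons. The median log2 difference of the 10 genes was -0.04 with PBS, -0.04 with LPS and 0.0027 averaged, and that of all tested genes was 0 with PBS, -0.0008 with LPS and 0.0016 averaged. Libraries of the genotypes did not overlap for 1 gene with PBS (6.82% of all tested genes) and for 4 with LPS, Cd5l, Marco, Msr1 and Scarb1 (11.4%).

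**Figure D2:**
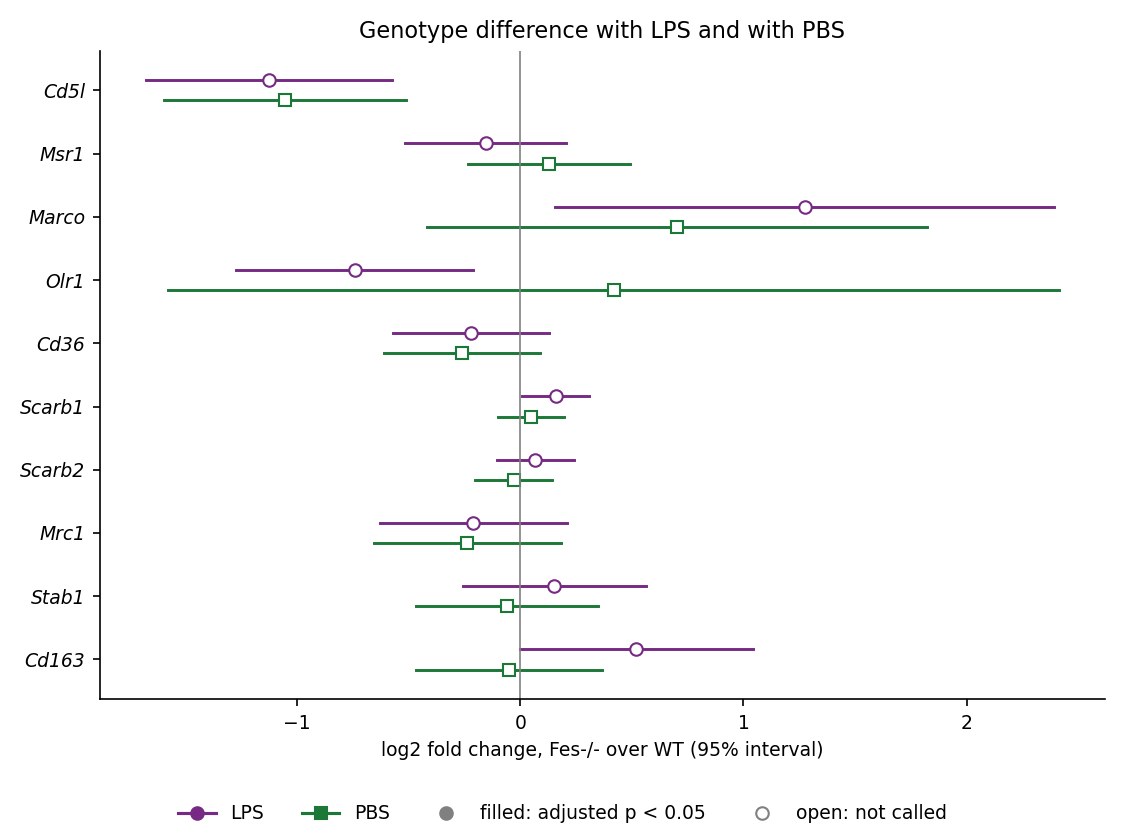
Log2 fold change of Fes-/- over wild type (x axis, TMM-scaled counts, bars are 95% intervals) for each gene with LPS (circles) and with PBS (squares), from 3 libraries per group; open symbols did not pass the adjusted threshold within that treatment. Cd5l lies near -1.1 in both treatments, and the widest interval is that of Olr1 with PBS.

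Marco (ENSMUSG00000026390, GRCm38 chr1:120474538-120505024, minus strand), the class A receptor with a collagen-like stalk that binds bacteria, had the largest positive genotype difference of the group, and 1 replicate number carried much of it. With LPS, Marco had 14.7, 24.3 and 41.2 TPM in Fes-/- macrophages, against 10.97, 10.4 and 11.2 TPM in wild-type macrophages. With PBS it had 10.4, 9.95 and 32.1 TPM in Fes-/- macrophages, against 11.02, 12.2 and 8.44 TPM in wild-type macrophages. The Fes-/- LPS libraries all lay above the wild-type LPS libraries, whereas with PBS Fes-/- library 3 alone did. The differences were 1.27 ± 0.50 with LPS (adjusted p = 0.732) and 0.70 ± 0.50 with PBS (adjusted p = 0.975). Library 3 had 2.11 times the mean of the other Fes-/- libraries with LPS and 3.16 times with PBS. Without both libraries numbered 3, an alternative chosen after seeing the data, the difference was 0.84 with LPS (adjusted p = 0.214) and turned to -0.14 with PBS (adjusted p = 0.871). By edgeR with the count filter none of the genotype differences of Marco was called, whereas without the filter all were (0.69 with PBS, adjusted p = 0.000119, 1.299 with LPS, adjusted p = 2.31e-18, and 0.995 averaged, adjusted p = 5.34e-22). The unfiltered fit called more genes in general, 315 of 28358 with PBS, 358 with LPS and 581 averaged. With the filter these were 13, 17 and 26 of 15801, and the estimates of Marco themselves changed little. The summed level of 6 dendritic cell markers also differed with LPS, at 3.18 to 3.82 TPM in Fes-/- and 1.88 to 2.83 TPM in wild-type macrophages. Of these 6, 4 had positive and 2 negative differences with LPS, and none was called. With PBS their sums overlapped, at 1.15 to 1.61 TPM in Fes-/- and 0.958 to 1.43 TPM in wild-type macrophages. The 4 stromal markers summed with LPS to 0.310 to 0.533 TPM in Fes-/- and 0.257 to 0.338 TPM in wild-type macrophages. With PBS the stromal sums were 0.138 to 0.387 TPM in Fes-/- and 0.0376 to 0.237 TPM in wild-type macrophages. In Fes-/- PBS libraries 1 to 3, Col1a2 had 13, 19 and 47 counts, Col1a1 5, 11 and 20, Dcn 3, 1 and 2, and Pdgfra 1, 5 and 0. In Fes-/- LPS libraries 1 to 3, Col1a2 had 22, 20 and 26 counts, Col1a1 9, 17 and 21, Dcn 36, 35 and 28, and Pdgfra 1, 2 and 1. None of the 3 tested stromal markers was called (medians 1.32 with LPS and 0.47 with PBS). The part of these markers in the Marco result was not tested. For the other 9 genes, the library 3 ratios ran from 0.903 to 1.76 with LPS and from 0.760 to 1.44 with PBS.

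Olr1 (ENSMUSG00000030162, GRCm38 chr6:129485244-129507165, minus strand), the receptor for oxidised LDL best known from endothelium, had 74.0, 69.5 and 127 TPM in Fes-/- LPS macrophages, against 146, 187 and 113 TPM in wild-type LPS macrophages. The highest Fes-/- library exceeded the lowest wild-type library, so the groups overlapped. The difference was -0.74 ± 0.24 (95% interval -1.27 to -0.21, unadjusted p = 0.0108, adjusted p = 0.696). With PBS the counts of 6, 13 and 7 in Fes-/- libraries and 5, 3 and 12 in wild-type libraries were too low to show a difference of the size seen with LPS (95% interval -1.58 to 2.41).

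Msr1 (ENSMUSG00000025044, GRCm38 chr8:39581685-39642673, minus strand), the founding class A receptor for modified LDL, had 683, 661 and 736 TPM in Fes-/- LPS macrophages, against 761, 792 and 739 TPM in wild-type LPS macrophages, which did not overlap. The difference was -0.16 ± 0.17 (adjusted p = 0.909), and with PBS it was 0.13 ± 0.17 (adjusted p = 0.975). Scarb1, the receptor for high-density lipoprotein, had 19.3, 20.2 and 18.6 TPM in Fes-/- LPS macrophages, against 17.7, 16.2 and 17.7 TPM in wild-type LPS macrophages. These did not overlap either, and the difference of 0.16 ± 0.07 did not pass (unadjusted p = 0.0402, adjusted p = 0.762).

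Cd163, which takes up haptoglobin-haemoglobin complexes, had 68, 63 and 59 counts in Fes-/- LPS libraries, against 31, 48 and 27 counts in wild-type LPS libraries. After scaling the groups overlapped, and the difference was 0.52 ± 0.24 with LPS (95% interval -0.00 to 1.04, adjusted p = 0.768) and -0.05 ± 0.19 with PBS. For the other receptors the 95% intervals of the genotype difference are given, each for 1 gene and not adjusted for the number of genes. For Scarb2, the lysosomal membrane protein that carries glucocerebrosidase, they ran from -0.11 to 0.24 with LPS and from -0.20 to 0.14 with PBS, the tightest of the group together with those of Scarb1. For Mrc1, the mannose receptor, they ran from -0.63 to 0.21 with LPS and from -0.66 to 0.18 with PBS. For Stab1, which clears acetylated LDL and other extracellular ligands, they ran from -0.26 to 0.56 with LPS and from -0.47 to 0.35 with PBS, and for Cd36 from -0.57 to 0.13 with LPS and from -0.61 to 0.09 with PBS.

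With LPS, genes of the group moved in opposite directions, and how many genes rose depended on the scaling of the libraries. TMM scaling, which centres the trimmed bulk of genes, raised LPS over PBS values by 0.93 on the log2 scale in Fes-/- macrophages and by 0.91 in wild-type macrophages relative to scaling by library totals. Under library totals the median of all tested genes was -1.01 in Fes-/- and -0.98 in wild-type macrophages, and under TMM it was -0.08 and -0.07 in the same order. With TMM, 8 of the 10 genes were called in Fes-/- macrophages (5 higher and 3 lower), where 73.2% of all tested genes were called, 34.3% higher and 38.9% lower, and 6 in wild-type macrophages (3 higher and 3 lower), where 73.4% were called, 34.6% higher and 38.8% lower. With library totals, 9 were called in each genotype, 2 higher and 7 lower, where 85.9% of all tested genes were called in Fes-/- macrophages (15.9% higher and 70% lower) and 84.8% in wild-type macrophages (16.3% higher and 68.5% lower). Msr1 and Olr1 rose and Scarb1, Cd163 and Cd5l fell in both genotypes under both scalings, so these 5 directions did not depend on which of these scalings was used.

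**Figure D3:**
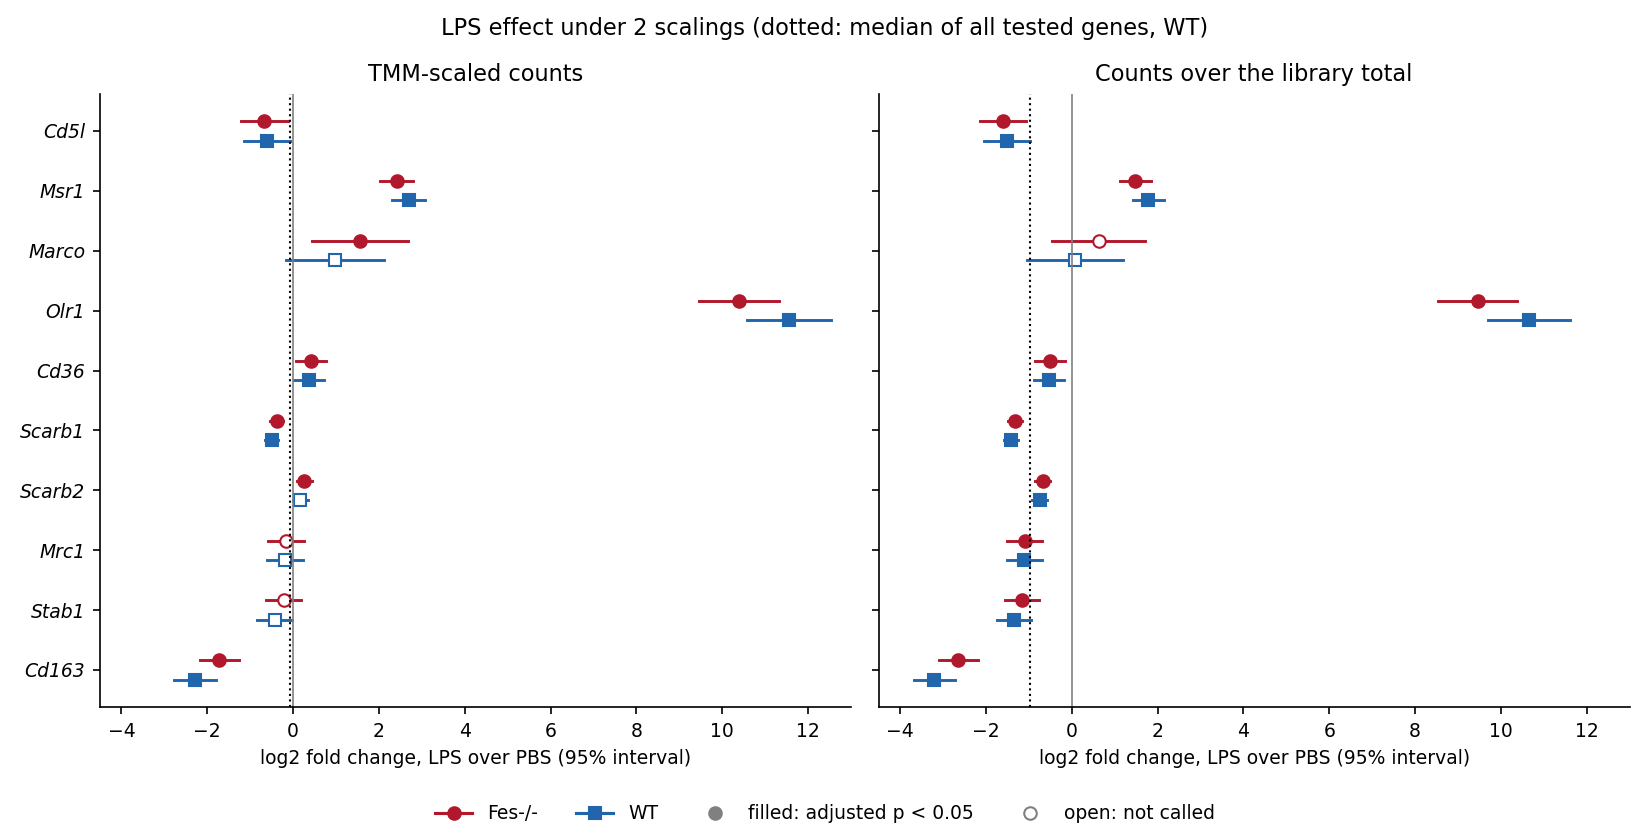
Log2 fold change of LPS over PBS (x axis, bars are 95% intervals) in Fes-/- (circles) and wild-type (squares) macrophages, 3 libraries per group, with TMM-scaled counts on the left and counts over the library total on the right; filled symbols passed the adjusted threshold and the dotted line is the median of all tested genes in wild type. Olr1 and Msr1 lie right of 0 and Scarb1, Cd163 and Cd5l left of 0 in both panels, while Cd36 and Scarb2 lie right of 0 on the left and left of 0 on the right.

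Olr1 had the largest response. It had 74.0, 69.5 and 127 TPM in Fes-/- LPS libraries, against 0.0956, 0.182 and 0.105 TPM in Fes-/- PBS libraries, and 146, 187 and 113 TPM in wild-type LPS libraries, against 0.0628, 0.0451 and 0.173 TPM in wild-type PBS libraries. It was thus near the detection limit without LPS and among the middle of the group with it. The fitted log2 fold change with TMM was 10.39 ± 0.43 in Fes-/- (adjusted p = 1.07e-09) and 11.55 ± 0.44 in wild-type macrophages (adjusted p = 5.87e-10), and it rests on 26 PBS counts in all Fes-/- libraries and 20 in all wild-type libraries. The endothelial markers Cdh5 and Kdr rose with LPS as well, to summed levels of 18.4 to 22.9 TPM, against 1.53 to 2.33 TPM with PBS, in Fes-/- macrophages and 16.9 to 19.6 TPM, against 1.32 to 1.95 TPM with PBS, in wild-type macrophages, and their part in the Olr1 result was not tested. Msr1 rose to 693 ± 38.4 TPM with LPS, against 256 ± 32.6 TPM with PBS, in Fes-/- macrophages, and to 764 ± 26.8 TPM with LPS, against 226 ± 71.6 TPM with PBS, in wild-type macrophages (SD, n = 3 each). Its log2 fold changes were 2.41 ± 0.18 in Fes-/- (adjusted p = 1.81e-08) and 2.699 ± 0.18 in wild-type macrophages (adjusted p = 6.03e-09), and 1.48 ± 0.17 and 1.79 ± 0.17 in the same order with library totals. Marco was called higher in Fes-/- macrophages with TMM (1.55 ± 0.50, adjusted p = 0.0168) but neither with library totals (0.63 ± 0.48, adjusted p = 0.242) nor without Fes-/- LPS library 3 (1.11, adjusted p = 0.0715). In wild-type macrophages Marco gave 0.98 ± 0.51 with TMM (adjusted p = 0.107). It was called there without Fes-/- PBS library 3 (adjusted p = 0.0114), a library outside this contrast that enters the shared error. With library totals Marco gave 0.07 ± 0.50 in wild type (adjusted p = 0.897), and its mean there was 10.9 TPM with LPS and 10.6 TPM with PBS.

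The Olr1 promoter window is shown because this gene responded most and because it alone of the 8 windows matched the AP-1 pattern. It spans the same 300 bases around the RefSeq start (GRCm38.p6, chr6:129507116-129507415, minus strand, 5′ to 3′).
Olr1: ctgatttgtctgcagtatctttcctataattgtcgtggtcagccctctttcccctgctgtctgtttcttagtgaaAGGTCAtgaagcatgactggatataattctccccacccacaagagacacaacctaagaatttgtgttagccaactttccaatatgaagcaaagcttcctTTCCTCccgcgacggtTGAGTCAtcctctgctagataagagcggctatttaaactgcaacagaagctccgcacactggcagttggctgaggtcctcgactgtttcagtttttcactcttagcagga
The capitals mark AGGTCA, a nuclear receptor half-site, at -175, TTCCTC, a PU.1 core on the opposite strand, at -76 and TGAGTCA, an AP-1 sequence, at -60. The AP-1 pattern TGANTCA, the same on both strands, was found in 7.81% of the 32851 promoter windows and in 1 of the 8 windows of the group. AGGTCA was found in 16.3% of all windows and in 2 of the 8. A pattern of the NF-kB kind (GGGA and TTCC separated by 2 bases, in 1.47% of all windows), a C/EBP pattern (TTGCNNAA, 10.8%) and an ISRE-like pattern (GAAA repeated after 2 bases, 3.44%) were in none of the 8 windows, which says only that these letters are not there.

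Cd163, Scarb1 and Cd5l fell. Cd163 had 0.411, 0.490 and 0.565 TPM in Fes-/- LPS libraries, against 3.09, 3.01 and 3.32 TPM in Fes-/- PBS libraries, and 0.305, 0.451 and 0.249 TPM in wild-type LPS libraries, against 2.78, 3.87 and 2.82 TPM in wild-type PBS libraries. LPS and PBS libraries were far apart in both genotypes, and the log2 fold changes with TMM were -1.72 ± 0.21 in Fes-/- (adjusted p = 3.67e-06) and -2.29 ± 0.23 in wild-type macrophages (adjusted p = 2.96e-07). Library totals gave -2.65 ± 0.21 in Fes-/- and -3.20 ± 0.22 in wild type. Scarb1 had 19.4 ± 0.791 TPM with LPS, against 49.7 ± 2.87 TPM with PBS, in Fes-/- macrophages and 17.2 ± 0.892 TPM with LPS, against 46.5 ± 2.33 TPM with PBS, in wild-type macrophages (SD, n = 3 each). Its SD was at most 5.78% of the mean in any group, and its log2 fold changes with TMM were -0.38 ± 0.07 (adjusted p = 0.000167) in Fes-/- and -0.49 ± 0.07 (adjusted p = 1.41e-05) in wild-type macrophages. Library totals gave a larger fall, -1.32 ± 0.08 in Fes-/- and -1.40 ± 0.08 in wild type. Cd5l in LPS libraries was at 32.1% of its PBS level in TPM in Fes-/- macrophages and at 34.2% in wild-type macrophages. With TMM its log2 fold changes were -0.67 ± 0.25 in Fes-/- (adjusted p = 0.0294) and -0.60 ± 0.24 in wild-type macrophages (adjusted p = 0.0441). With library totals they were -1.60 ± 0.25 and -1.52 ± 0.24 in the same order. The TMM call in Fes-/- macrophages was lost without any of Fes-/- PBS library 1, Fes-/- PBS library 3, Fes-/- LPS library 1 and Fes-/- LPS library 2 (adjusted p = 0.0679 to 0.136). In wild-type macrophages it was lost without any of wild-type PBS library 1 or 2, wild-type LPS library 1, 2 or 3, Fes-/- PBS library 1 and Fes-/- LPS library 1 (adjusted p = 0.0532 to 0.145), and with RLE factors (-0.56, adjusted p = 0.056).

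For the remaining receptors the answer turned on the scaling. Cd36 was called higher with LPS by TMM (0.42 ± 0.16, adjusted p = 0.0302 in Fes-/-, and 0.38 ± 0.16, adjusted p = 0.0469 in wild type) and lower by library totals (-0.51 ± 0.16, adjusted p = 0.00833 in Fes-/-, and -0.53 ± 0.16, adjusted p = 0.00687 in wild type). Its deposited level was 732, 735 and 854 TPM in Fes-/- LPS libraries, against 1075, 1057 and 1263 TPM in Fes-/- PBS libraries. Scarb2 was called higher in Fes-/- macrophages by TMM (0.26 ± 0.08, adjusted p = 0.0094) and lower by library totals (-0.67 ± 0.08, adjusted p = 1.41e-06), and in wild type the values were 0.16 ± 0.08 (adjusted p = 0.0806) by TMM and -0.75 ± 0.08 (adjusted p = 4.34e-07) by library totals. The TMM calls also rested on single libraries: that of Cd36 was lost in Fes-/- without Fes-/- PBS library 1, Fes-/- PBS library 2 or Fes-/- LPS library 3 (adjusted p = 0.07 to 0.0993), that of Cd36 in wild type without wild-type PBS library 2 or 3, wild-type LPS library 1 or 2 or any Fes-/- LPS library (adjusted p = 0.0546 to 0.207), and that of Scarb2 in Fes-/- without Fes-/- LPS library 2 (adjusted p = 0.0538). Under TMM, Cd36 in both genotypes and Scarb2 in Fes-/- macrophages were thus called higher with LPS, and as a share of all counts both genes were called lower in both genotypes. Mrc1 and Stab1 were lower under both scalings. With TMM Mrc1 gave -0.17 ± 0.19 in Fes-/- and -0.20 ± 0.19 in wild type and Stab1 -0.22 ± 0.19 and -0.43 ± 0.19, of which none was called, although Stab1 in wild type was called without wild-type PBS library 3, wild-type LPS library 2 or Fes-/- LPS library 3 (adjusted p = 0.0092 to 0.0374). With library totals Mrc1 gave -1.10 in Fes-/- (adjusted p = 9.81e-05) and -1.11 in wild type (adjusted p = 9.25e-05), both called, and Stab1 fell by 1.15 in Fes-/- (adjusted p = 5.53e-05) and also fell in wild type (adjusted p = 1.37e-05). Mrc1 in TPM was at 45.5% of its PBS level in Fes-/- and at 45.4% in wild-type LPS macrophages, and Stab1 at 44.0% in Fes-/- and at 38.7% in wild type.

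In wild type, libraries with the same replicate number deviated together, and the fit with that number as a block called 9 of the 10 genes with LPS (4 higher and 5 lower) instead of 6, where 75.1% of all tested genes were called, 35.4% higher and 39.6% lower. It added Marco (0.99, adjusted p = 0.00176), Mrc1 (-0.20, adjusted p = 0.0435) and Stab1 (-0.41, adjusted p = 0.000404), and left Scarb2 out (0.16, adjusted p = 0.0508). This blocked fit used TMM. With library totals and no block, Marco gave 0.07 in wild type and was not called (adjusted p = 0.897).

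The LPS responses of the genotypes were compared by their difference, Fes-/- minus wild type, and 0 of the 10 genes were called (edgeR, 3 of all tested genes, 0.019%), with 0 at an unadjusted p under 0.05 (2.94% of all tested genes) and 0 by DESeq2. The intervals were narrow for Scarb2 (0.10, 95% interval -0.15 to 0.34) and Scarb1 (0.11, -0.10 to 0.32). For Cd5l the difference was -0.07 (95% interval -0.84 to 0.70). The intervals were wide for Marco (0.57, -1.003 to 2.15), for Cd163 (0.57, -0.10 to 1.24) and for Olr1 (-1.16, -3.25 to 0.93). A difference in response of up to several fold in these last genes therefore lies within the error.

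Other genes of the same families and their partners were read from lists. Of 22 further scavenger receptors and SRCR or mannose receptor family genes, 14 were tested, and none was called between the genotypes with PBS, with LPS or averaged. The smallest p values were those of Cd5, a T-cell SRCR receptor, with PBS (1.18 ± 0.54), of Stab2, the sister of Stab1, with PBS (-0.97 ± 0.51, adjusted p = 0.975 for each), and with LPS of the dendritic-cell lectin Ly75 (0.40 ± 0.23, adjusted p = 0.81) and of Lrp1, the receptor for apolipoprotein E (0.20 ± 0.12, adjusted p = 0.814). With LPS against PBS, 7 of the 14 were higher and 2 lower in each genotype by TMM, with medians of 0.60 in Fes-/- and 0.68 in wild type. By library totals 4 were higher and 7 lower in Fes-/-, and 4 higher and 6 lower in wild type. Cxcl16, a membrane chemokine that also binds oxidised LDL, rose by TMM and by library totals (2.37 ± 0.10 in Fes-/-, adjusted p = 2.06e-11, and 2.48 ± 0.10 in wild type, adjusted p = 1.33e-11, by TMM). Scarf1 (1.63 and 1.59), Ly75 (3.27 and 2.91) and Pla2r1 (2.898 and 2.74, Fes-/- before wild type) rose too by TMM.

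Of 13 genes of lipid uptake, handling and efflux, none was called between the genotypes in any of the 3 comparisons. The smallest p values with PBS were those of the fatty acid-binding protein Fabp4 (-0.67 ± 0.30) and the cholesterol-esterifying enzyme Soat1 (-0.18 ± 0.09, adjusted p = 0.975 for each). With LPS they were those of Mylip, which degrades the LDL receptor (0.46 ± 0.14, adjusted p = 0.679), and Fabp5 (-0.78 ± 0.44, adjusted p = 0.813). With LPS against PBS, 4 were higher and 4 lower in Fes-/- and 4 higher and 5 lower in wild type by TMM, and 2 higher and 8 lower in each by library totals. Acsl1, which activates long-chain fatty acids, rose by 3.03 ± 0.09 in Fes-/- and 3.14 ± 0.09 in wild type, and Fabp4 rose by 3.19 ± 0.30 and 2.59 ± 0.29 in the same order. Soat1 fell (-1.17 ± 0.09 in Fes-/- and -1.21 ± 0.09 in wild type), as did the cholesterol exporter Abcg1 (-1.75 ± 0.19 and -2.20 ± 0.19). The sign of the lysosomal cholesterol-binding protein Npc2 turned between TMM (0.83 and 0.81) and library totals (-0.11 in each genotype).

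The transcription factor list split with LPS, 3 higher and 4 lower in Fes-/- and 3 higher and 5 lower in wild type by TMM, and 2 higher and 8 lower in Fes-/- and 2 higher and 7 lower in wild type by library totals. Rxra, the partner of liver X and fatty acid receptors, gave -3.22 in Fes-/- and -3.39 in wild type. Spi1, which encodes PU.1, rose by 1.59 ± 0.07 in Fes-/- and 1.55 ± 0.07 in wild type, and the glucocorticoid receptor Nr3c1 by 1.83 ± 0.09 and 1.92 ± 0.09. These 3 kept their direction with library totals.

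Of 9 haem and haemoglobin handling genes, which act with Cd163, none was called between the genotypes. The smallest p values were those of the ferritin chain Fth1 (-0.21 ± 0.11) and haptoglobin, Hp (-0.58 ± 0.56), with PBS (adjusted p = 0.975 for each), and of the haem-binding protein Hpx (0.69 ± 0.40, adjusted p = 0.813) and Slc48a1 (-0.21 ± 0.12, adjusted p = 0.813) with LPS. With LPS 2 were higher and 5 lower by TMM in each genotype. By library totals 1 was higher and 7 lower in Fes-/- and 1 higher and 8 lower in wild type. The haem-degrading enzyme Hmox1 fell (-1.26 ± 0.11 in Fes-/- and -1.11 ± 0.11 in wild type), as did the iron exporter Slc40a1 (-3.61 ± 0.31 and -3.74 ± 0.31) and the haem transporter Slc48a1 (-0.90 ± 0.12 and -0.78 ± 0.12). Haptoglobin (Hp), whose complex with haemoglobin is the ligand of Cd163, rose by 4.73 ± 0.51 in Fes-/- and 4.68 ± 0.49 in wild type. Of the 6 partners and cargo genes of Scarb2, none was called between the genotypes. The smallest p values were those of the lysosomal membrane proteins Lamp1 (-0.12 ± 0.08) and Cd63 (-0.19 ± 0.13) with PBS (adjusted p = 0.975 for each), and with LPS those of Cd63 (-0.27 ± 0.13, adjusted p = 0.774) and Lamp1 (-0.07 ± 0.08, adjusted p = 0.918). With LPS against PBS, 3 were higher and 1 lower in each genotype by TMM but 1 higher and 5 lower by library totals. Ap3b1, a subunit of the adaptor that sorts proteins to lysosomes, rose by 1.49 ± 0.07 in Fes-/- and 1.44 ± 0.07 in wild type, while Lamp2 turned from 0.75 and 0.72 by TMM to -0.18 and -0.19 by library totals.

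Cd5l is often seen together with genes of resident tissue macrophages. Of 11 such genes 6 were tested, since Vsig4, Clec4f, Lyve1, Cd209a and Cd209f had at most 10 counts in any library. None of the 6 was called between the genotypes. Timd4, a phosphatidylserine receptor, was higher in every Fes-/- library than in every wild-type library with LPS, with 123, 99 and 147 counts in Fes-/- libraries, against 54, 62 and 61 counts in wild-type libraries (0.77 ± 0.29, adjusted p = 0.719). Averaged over both treatments, 5 of the 6 had negative differences and Timd4 alone a positive one (median -0.14), and the same tally held with PBS (median -0.22). The next smallest p values were those of Il18bp with PBS (-0.26 ± 0.16, adjusted p = 0.975) and Vcam1 with LPS (-0.26 ± 0.17, adjusted p = 0.843). With LPS 5 of the 6 rose in each genotype by TMM, and 4 rose and 1 fell by library totals. Vcam1 rose by 8.71 ± 0.26 in Fes-/- and 8.68 ± 0.25 in wild type, Timd4 by 5.80 ± 0.42 and 6.67 ± 0.52, Il18bp by 2.93 ± 0.17 and 2.69 ± 0.17 and Axl by 2.73 ± 0.19 and 2.55 ± 0.19, with Fes-/- given before wild type. The values of Timd4 rest on very few PBS counts, 2, 3 and 5 in Fes-/- libraries and 1, 2 and 0 in wild-type libraries.

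**Figure D4:**
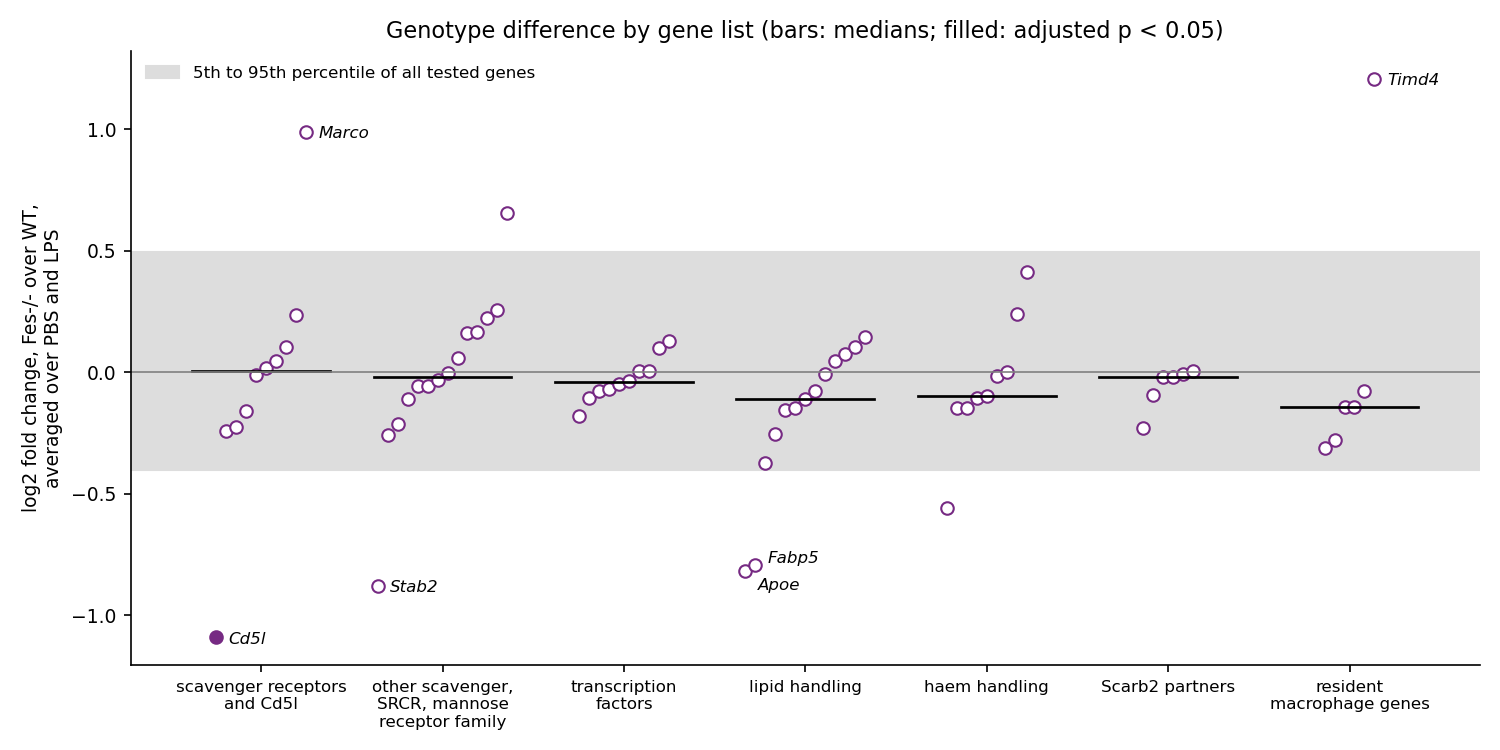
Log2 fold change of Fes-/- over wild type averaged over LPS and PBS (y axis) for each tested gene of the 7 lists (x axis); points are genes, bars list medians and the grey band the 5th to 95th percentile of all tested genes (-0.40 to 0.49). Cd5l is the 1 filled point, and the lipid handling list has a median of -0.11 with none called.

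As a description of pattern, each gene was compared with the tested genes of at least 5 CPM on average, leaving out unnamed gene models. The measure was the root mean square difference of centred log2 CPM over the 12 libraries, not scaled by the range of a gene. Nearest to Cd5l were Timp2 (0.349), Mgst1 (0.366) and Entpd1 (0.375). Nearest to Olr1 were Mmp13 (0.546), Cxcl10 (0.604) and Ccl4 (0.619), and nearest to Marco were Slc24a5 (0.549), Siglece (0.587) and Crim1 (0.611). Smaller values were those of Scarb2 to Tbc1d23 (0.046), of Scarb1 to Vps8 (0.0506) and of Mrc1 to Lyz2 (0.0856), and genes that vary over unlike ranges are not comparable in this measure. Msr1 lay nearest to Pcdh7 (0.123), Cd36 to Prkar2b (0.125), Stab1 to Pccb (0.123) and Cd163 to Zbtb34 (0.238).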

How the data were processed

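Poly-A RNA-seq of 12 libraries, 3 per group, was analysed. Whole-number counts per gene and TPM per gene were used as deposited by the authors. The submitters' processing notes list the aligner STAR (2.7.8a) and Picard (2.9.0), then DESeq2 (1.34.0) under R (4.1.12). They list GRCm38 as well as mm9 and give neither a role. The counting program and strand setting are not given in the sources used here. Gene lengths implied by counts over TPM, over 10303 genes with at least 50 counts in every library, lay within 1% of GENCODE M21 (GRCm38) exon lengths for 98.6% of them, so GRCm38 coordinates are printed. Of the 10 genes, Stab1 alone shares exon bases with another gene, Nt5dc2 on the opposite strand.

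Genes were filtered with filterByExpr and tested on all 12 libraries in 1 fit with a mean per group (edgeR 4.0.16, R 4.3.3, TMM, robust quasi-likelihood F test, two-sided). Adjustment (Benjamini-Hochberg) ran over the 15801 genes that entered the fit, with calls under 0.05. The SE is the log2 fold change over the root of F. CPM are counts over the TMM-scaled library size. Where the labels do not say that libraries came from separate mice, p-values measure the spread between libraries only. A test on simulated counts, drawn from the means and dispersions of this fit, was run after it. Alternatives were DESeq2 1.42.0, RLE factors, library totals, other filters, the 6 libraries of a comparison, limma 3.58.1 on log2(TPM + 1) and log2(TPM + 0.1), omission of each library, and replicate blocks.

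In wild type, the deviations from the group mean of LPS and PBS libraries with the same number correlated at 0.141, 0.166 and 0.137. Each was over 0.1, and by that rule these libraries were taken as paired by the data. This pairing entered the fits with a block alone, and the main tests used no block. The labels do not state this pairing. In Fes-/- they correlated at 0.0678, 0.0894 and 0.189, which did not meet that rule.

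The 10 genes and all lists were chosen with earlier results of these data known. The text names all 10 genes, from each list the called genes (at most 4, by p) or, within a treatment between genotypes, up to 2 with the smallest p, and for likeness the nearest 3 genes (for 7 of the 10 genes the nearest alone is printed). Further marker genes, Timd4 counts and Abcg1 in Fes-/- were chosen after their values were seen, as was the omission of both Fes-/- libraries numbered 3. Promoter windows are RefSeq (GRCm38.p6), and Msr1 and Scarb1 had no window in the table used. Protein sequences were not used here, and 1 listed gene is not reported here.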

Additional observations from a re-analysis of the deposited data

How the results depend on the processing

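The 10 genes kept direction and side of the threshold in most alternatives, 1161 values in all, while 41 gained a call, 42 lost one and 65 changed sign. Most sign changes were differences near 0. Depth limits Olr1 with PBS (3 to 13 counts) and Cd163 with LPS (27 to 68 counts). The labels do not tie libraries to mice, and the number of mice limits what a genotype test can pass.

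Counts of called genes between the genotypes moved with the tool. DESeq2 called 1 with PBS and 1 with LPS, and 33, 37 and 88 of all genes with PBS, with LPS and averaged, against 13, 17 and 26 by edgeR. Without the count filter 2 were called with PBS, 3 with LPS and 2 averaged, and 315, 358 and 581 of all 28358 genes in that fit. For the difference of LPS responses DESeq2 called 5 of all genes and the unfiltered fit 90, against 3. Omitting 1 library gave 0 to 1 with LPS and 0 to 1 averaged, 6 to 8 for LPS in Fes-/- and 4 to 7 for LPS in wild type. Of the 16159 to 16302 genes tested in these omissions, 12 to 19 were called with LPS and 19 to 36 averaged. For LPS against PBS, 11014 to 11848 were called in Fes-/- and 11074 to 11743 in wild type. The cause was not tested.

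With the replicate number as a block shared by both genotypes, 0 genes were called averaged (Cd5l -1.11, adjusted p = 0.137). A different block, joining libraries of the same genotype and number, was entered as a random effect (correlation 0.203). With that block Cd5l kept its call (-1.12, adjusted p = 0.0446). The loss and the kept call thus come from different blocks and are not a direct comparison of fixed and random effects. In Fes-/-, where each library correlated best with its own number, the blocked LPS fit called 9 genes against 8, adding Stab1 (-0.22, adjusted p = 0.0243). Of all 15801 tested genes it called 11877 there, against 11574 without the block. In wild type it called 9 of the group against 6, and 11862 of all tested genes against 11601. It changed no call in the difference of LPS responses or within a treatment.

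With library totals the share of higher calls with LPS among all genes fell to 2510 higher and 11064 lower in Fes-/- (5424 and 6150 with TMM) and to 2579 and 10828 in wild type (5464 and 6137). Signs turned for Cd36 (-0.51 in Fes-/-, -0.53 in wild type) and Scarb2 (-0.67 and -0.75), and by values near 0 for Scarb2 with PBS between genotypes (0.0031) and Msr1 averaged (0.0098). With log2(TPM + 1) they turned for Cd36 (-0.55, -0.54), Scarb2 (-0.71, -0.77), Scarb2 (0.020), Stab1 (0.0041) and Cd163 (0.0048) between genotypes with PBS, Msr1 averaged (0.040), and the differences of LPS responses of Cd36 (-0.0035) and Mrc1 (-0.015). With log2(TPM + 0.1) the same values were -0.55, -0.54, -0.72, -0.78, 0.020, 0.0042, 0.0093, 0.041, -0.0035 and -0.015. For LPS against PBS both settings scale by the library total, as does TPM. The random-effect block turned Msr1 averaged (0.0094).

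Without both Fes-/- libraries numbered 3, signs turned for Marco with PBS (-0.14), Stab1 with LPS (-0.019) and averaged (-0.12), Msr1 averaged (0.0017), and the differences of LPS responses of Mrc1 (-0.012) and Cd5l (0.0074). LPS then called 7 genes in Fes-/- and 8 in wild type. Of all 16123 genes tested in this setting, 10842 were called in Fes-/- and 11684 in wild type.

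Omitting 1 library turned signs of uncalled differences only. Between genotypes with PBS the ranges were -0.078 to 0.38 for Msr1, -0.0066 to 0.064 for Scarb1, -0.24 to 0.089 for Stab1, -0.15 to 0.11 for Cd163 and -0.13 to 0.98 for Marco. With LPS Stab1 ranged from -0.018 to 0.27. Averaged, they were -0.12 to 0.11 for Msr1, -0.014 to 0.048 for Scarb2 (0.054 without both Fes-/- libraries numbered 3), -0.043 to 0.12 for Stab1 and -0.34 to 0.20 for Olr1. For the difference of LPS responses they were -0.16 to 0.17 for Cd36, -0.17 to 0.19 for Mrc1 and -0.29 to 0.16 for Cd5l.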
